A study of Mus with 18 samples.

Results

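The genes described here are 9 cathepsin genes (Ctsa, Ctsb, Ctsc, Ctsd, Ctsh, Ctsk, Ctsl, Ctss and Ctsz) and Lamp1, a protein of the lysosomal membrane, taken by gene symbol from the expression tables of 2 RNA sequencing experiments. Each table listed 21401 symbols, the 10 genes were found in both tables, and all 10 were tested in both. The first experiment used C2C12 cells, a mouse myoblast line labelled wild type, sequenced in 3 groups (control, LPS and LPS-MIC-1) of 3 libraries. Control cells received a vehicle, which is ethanol in the text of the study and saline in the labels. LPS cells received lipopolysaccharide at 1 μg/mL, and LPS-MIC-1 cells received the same LPS with moringa isothiocyanate-1 (MIC-1) for 24 h. The labels put MIC-1 at 10 μM, whereas the text of the study puts it at 1 μM for the sequenced cells. The second experiment used gastrocnemius muscle of wild type C57BL/6 male mice, again with 3 libraries per group. Control mice received a vehicle, which the text of the study gives as 10% DMSO by mouth. LPS mice were injected intraperitoneally with LPS at 10 mg/kg. LPS-MIC-1 mice were gavaged with MIC-1 at 80 mg/kg on each of 3 days before that injection, in 10% DMSO by the labels. Muscle was collected 16 h after LPS. Neither experiment had a group given MIC-1 alone, and the age of the mice is not given in the sources used here. C2C12 is 1 clonal line, and no source says that its 3 libraries per group came from separate cultures, so their p-values measure only the spread between these libraries, which may be technical.

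Cathepsins are the proteases with which lysosomes degrade proteins delivered by endocytosis and autophagy. Most of them are cysteine proteases, Ctsd is an aspartic protease and Ctsa a serine carboxypeptidase. They are made as inactive precursors, tagged with mannose phosphate, sorted to lysosomes by mannose phosphate receptors, and activated by the acid that the vacuolar ATPase pumps in. Cystatins and stefins inhibit the cysteine cathepsins. Macrophages, which digest what they engulf, are rich in cathepsins, and Ctss has a known role in antigen presentation. In skeletal muscle, lysosomal proteolysis takes part in protein turnover and wasting.

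Expression was measured as FPKM, fragments per kilobase of transcript scaled between libraries, so levels can be compared between genes. Sequencing depth is not given in the sources used here. Summed FPKM ran from 547475 to 797734 per C2C12 library and from 634197 to 740810 per muscle library. Median-ratio scaling, which sets libraries level by their median gene, moved the median log2 fold change of all genes by at most 3.6e-06. The deposited values were thus already on that scale and not scaled to equal sums. A gene was called higher or lower when its absolute log2 fold change was over 1 and its limma adjusted p was under 0.001 in C2C12 or under 0.05 in muscle. Fold changes are differences of log2(FPKM + 0.1), and the added 0.1 understates the change of genes with low values. They are taken between means of logs, which can differ in either direction from the log ratio of mean FPKM where libraries are uneven. In bulk samples such as these, fewer cells of a type and less RNA per cell cannot be told apart.

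The label of the C2C12 libraries was compared with marker genes before the cathepsins were read. The libraries labelled control and LPS carried the macrophage list and not the myogenic list. Of the 20 macrophage markers 17 were found, and their summed FPKM was 10985 to 11046 over the control libraries, 7905 to 8126 over LPS and 80.7 to 293 over LPS-MIC-1. The 9 myogenic markers summed to between 0.285 and 0.823 FPKM with control labels, between 1.05 and 2.51 with LPS labels and between 702 and 911 with LPS-MIC-1 labels. Lyz2, the macrophage lysozyme and the most abundant marker of its list, averaged 4694 ± 85.5 FPKM (SD, n = 3) for the libraries labelled control, 1838 ± 45.5 for LPS and 17.1 ± 27.4 for LPS-MIC-1. Csf1r, the receptor for macrophage colony stimulating factor, averaged 724 ± 16.3, 177 ± 5.90 and 1.96 ± 2.69 FPKM in the same order. Des, the muscle intermediate filament protein desmin, averaged 0.126 ± 0.135, 0.498 ± 0.596 and 398 ± 78.7 FPKM, and Myod1, which defines myoblasts, was at 0.00976 ± 0.0169, 0.0118 ± 0.0205 and 53.9 ± 3.88 FPKM. Mesenchymal markers reached a sum of 0.416 FPKM at most with control labels, 1.97 with LPS labels and 561 with LPS-MIC-1 labels, where Col3a1, a collagen gene, averaged 227 ± 32.2 FPKM. Markers of the myogenic list were thus at or near 0 in the 6 libraries labelled control and LPS. The 12 muscle fibre markers summed to 28.7 to 41.1 FPKM with control labels, 10.7 to 14.7 with LPS labels and 747 to 1058 with LPS-MIC-1 labels. Of that list Tnni2 averaged 29.6 ± 1.53, 11.2 ± 1.20 and 102 ± 18.4 FPKM in the same order. Every C2C12 comparison below with the LPS-MIC-1 group also holds this change of markers, and its part in the cathepsin differences was not tested.

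A C2C12 library also stood apart within its group. In the library labelled LPS-MIC-1 replicate 1, 15 of the 17 macrophage markers were above the mean of the other two libraries, with a median ratio of 31.9, and the median marker reached 2.81% of its mean in the LPS libraries. In muscle the LPS-MIC-1 replicate 3 stood apart in the same list, with 15 of 17 markers above the mean of the other 2. The median ratio there, taken in the same way, was 4.35. The macrophage list as a whole was higher in all 3 LPS-MIC-1 muscle libraries, at summed FPKM of 44.3, 40.9 and 211 in replicates 1 to 3, where the control libraries held 19.8 to 22.7 and the LPS libraries 25.6 to 29.2. Muscle libraries carried the muscle markers in every group, with Des at 1607 ± 55.9 FPKM (control), 1590 ± 5.95 (LPS) and 1788 ± 66.1 (LPS-MIC-1). The other markers of the myogenic list were divided. With LPS-MIC-1 labels Myod1 averaged 4.72 ± 0.534 FPKM beside 21.9 ± 1.97 (control) and 33.9 ± 0.617 (LPS). Mef2c, a muscle transcription factor, averaged 43.4 ± 1.39 FPKM beside 58.3 ± 5.98 and 54.1 ± 2.10. The means of Myf6, Pax7 and Cdh15 were also below those of both other groups. That of Myf5 was above both. Myog and Chrna1 lay above control and below LPS, with Myog at means of 6.54 (control), 16.5 (LPS) and 13.2 FPKM (LPS-MIC-1). The 12 muscle fibre markers of the muscle libraries were led by Acta1, skeletal muscle actin. They summed to 230120 to 235100 FPKM with the vehicle, 218620 to 221820 with LPS and 171720 to 184510 with LPS-MIC-1. Not all of them fell. Tnnt3 averaged 9535, 10518 and 14243 FPKM and Myh2 17.5, 23.1 and 31.7 FPKM in the same order. Mb and Myh1 lay above control and below LPS, and the mean of Myh4 was not lower than in either group. Neutrophil markers, led by S100a8, were low but moved up in the LPS-MIC-1 mice, from sums of 1.76 to 2.74 and of 1.80 to 2.02 FPKM to sums of 14.9 to 20.0, while endothelial markers, led by Cdh5, summed to 83.4 to 85.1, to 52.0 to 53.0 and to 67.9 to 80.1 FPKM in the order of the groups. Intestinal epithelium markers, led by Krt8, summed to at most 1.94 FPKM in muscle. The part of these markers in the muscle differences below was not tested.

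In C2C12 libraries, LPS against control showed higher Ctsd and Ctsl and no gene of the 10 called lower. Members called higher were 2 of 10, against 10.9% of the 10877 genes tested, and members called lower were 0 of 10, against 10.0%. Unadjusted p was under 0.05 for 7 of 10 members and for 66.2% of all genes. Groups did not overlap for 9 of 10 members, and for 79.4% of all genes, so this share is near that of genes in general. The median log2 fold change of the members was 0.085 and that of all genes tested was 0.

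LPS-MIC-1 against LPS in C2C12 libraries had a different direction. Ctsa, Ctsc, Ctsd, Ctsk, Ctsl, Ctss and Ctsz fell, which makes 7 of 10 members called lower, against 25.6% of all genes tested. None was called higher, against 24.3%. Unadjusted p was under 0.05 for all 10 members and for 85.2% of all genes, and the groups did not overlap for all 10 members and for 85.5% of all genes. Their median log2 fold change was -1.30, and that of all genes was -0.047.

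In LPS-MIC-1 against control, which shares libraries with both comparisons above, 5 of 10 members were lower (Ctsa, Ctsc, Ctsk, Ctss and Ctsz), against 22.1% of all genes, and 1 was higher (Ctsl), against 21.1%. The groups of 9 of 10 members did not overlap, against 83.0% of all genes. The members' median log2 fold change was -1.02, beside -0.060 for all genes.

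**Figure D1:**
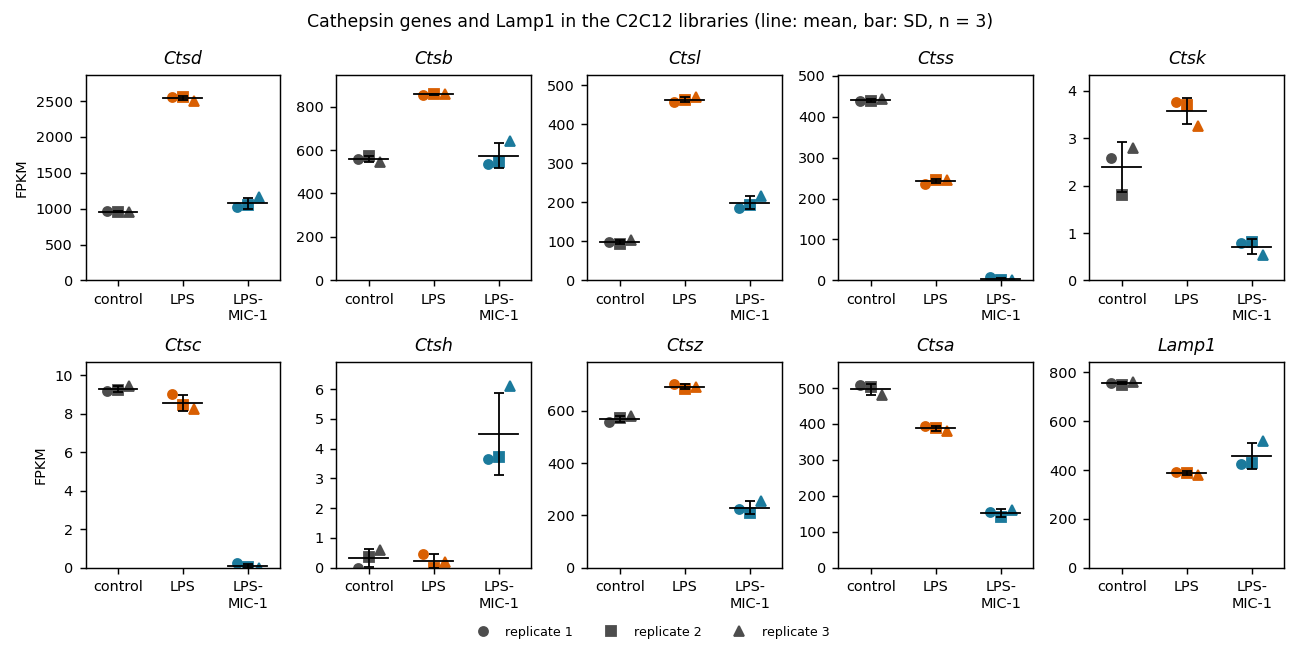
FPKM (linear axes, each from 0) of the 9 cathepsin genes and Lamp1 in the 9 C2C12 libraries, by group, with circles, squares and triangles for replicates 1, 2 and 3, a line at the mean and a bar of 1 SD (n = 3), cut off at 0 where it would run below. Ctsd and Ctsl peak in the LPS libraries, Ctss and Ctsc are near 0 in the LPS-MIC-1 libraries, and Lamp1 is highest in the control libraries.

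Ctsd, the aspartic endopeptidase, was the most abundant member in all 3 C2C12 groups. Its FPKM was 962, 956 and 948 in control replicates 1 to 3, 2562, 2562 and 2505 in LPS, and 1020, 1044 and 1162 in LPS-MIC-1. The LPS libraries were far above both other groups, and the lowest LPS-MIC-1 library was above the highest control library. Ctsd rose with LPS by 1.41 ± 0.064 (log2 fold change ± SE, limma adjusted p = 7.14e-07), which is 2.66-fold. It fell by 1.24 on the log2 scale in LPS-MIC-1 against LPS (limma adjusted p = 3.67e-07). Between LPS-MIC-1 and control the log2 difference was 0.17 (95% interval 0.020 to 0.32, limma adjusted p = 0.0390), below both limits of a call.

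Ctsb, a cysteine endopeptidase that can also trim dipeptides from a chain's end, had the same order of groups at a smaller size. Its FPKM was 559, 571 and 545 in control, 852, 858 and 859 in LPS, and 537, 546 and 640 in LPS-MIC-1. All LPS libraries were above all others, while control and LPS-MIC-1 overlapped. The log2 fold change was 0.62 with LPS (limma adjusted p = 0.000111) and -0.58 in LPS-MIC-1 against LPS (limma adjusted p = 8.04e-05), past the p limit but not the fold limit. LPS-MIC-1 and control differed by 0.036 (95% interval -0.13 to 0.20).

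Ctsl, a cysteine endopeptidase with broad substrates, had the largest log2 fold change of the 10 with LPS. It was at 97.5, 94.1 and 105 FPKM in control, at 458, 462 and 470 in LPS, and at 186, 194 and 217 in LPS-MIC-1. The 3 groups did not overlap. With LPS it rose by 2.23 ± 0.066 on the log2 scale (limma adjusted p = 9.10e-08), or 4.69-fold. LPS-MIC-1 was lower than LPS by a log2 fold change of -1.22 (limma adjusted p = 4.74e-07) and higher than control by 1.01 (95% interval 0.86 to 1.16, limma adjusted p = 1.73e-06). The last value lies at the fold limit, and it was 0.64 with libraries rescaled to equal sums, 0.60 after quantile normalization, 0.98 without control replicate 2 and 0.95 without LPS-MIC-1 replicate 3, which are not calls. Rescaling moved the median of all genes by -0.37 in this comparison, and relative to that shift Ctsl was at 1.01.

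Ctss, the cysteine protease that cuts the invariant chain of antigen presentation, was abundant in the control and LPS libraries and low in the LPS-MIC-1 libraries. Its FPKM was 438, 438 and 444 in control, 237, 246 and 246 in LPS, and 7.55, 0.193 and 0.458 in LPS-MIC-1. Replicate 1 of LPS-MIC-1 was 23.2-fold the mean of the other two, at 3.10% of the LPS mean, and it is the library in which macrophage markers were at a median of 2.81% of theirs. Ctss fell in LPS-MIC-1, at a log2 fold change of -7.82 ± 1.03 against LPS (limma adjusted p = 0.000130) and of -8.67 against control (limma adjusted p = 7.66e-05). Without LPS-MIC-1 replicate 1 these values were -9.23 and -10.09. The log2 ratios of mean FPKM were smaller in size, at -6.475 against LPS and -7.33 against control. In the fit of only the 6 libraries compared, the limma adjusted p against LPS was 0.00125, over the limit. LPS libraries were all below control libraries, but the log2 difference of -0.86 had an SE of 1.03 and a limma adjusted p of 0.505, in a fit whose spread includes the 3 LPS-MIC-1 libraries. With only the 6 libraries of the 2 groups the adjusted p was 9.80e-07 at the same fold change.

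Ctsk, a cysteine collagenase best known from osteoclasts, was low throughout. Its FPKM was 2.58, 1.81 and 2.80 in control, 3.77, 3.71 and 3.27 in LPS, and 0.797, 0.807 and 0.538 in LPS-MIC-1. Again the LPS-MIC-1 libraries lay below all others. Ctsk fell by 2.19 ± 0.21 on the log2 scale against LPS (limma adjusted p = 1.54e-05) and had a log2 fold change of -1.61 against control (limma adjusted p = 0.000123). The second value was not called with a pseudocount of 1, at -0.98, nor in the fit of only the 6 libraries compared, where the adjusted p was 0.00125 at the same fold change. RefSeq places Ctsk and Ctss next to each other among protein-coding genes, and their C2C12 control levels were far apart, at means of 2.40 and 440 FPKM.

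The 3 cysteine exopeptidases did not move together. Ctsc, dipeptidyl peptidase I, which activates serine proteases of immune cells, was at 9.17, 9.25 and 9.44 FPKM in control, at 9.04, 8.46 and 8.25 in LPS, and at 0.220, 0.0466 and 0 in LPS-MIC-1, replicate 3 being listed at 0. It fell in LPS-MIC-1, at a log2 fold change of -5.70 ± 0.36 against LPS (limma adjusted p = 1.35e-06), a size that depends on the pseudocount, with -3.14 at a pseudocount of 1 and -7.41 at 0.01. Control and LPS differed by -0.11 (95% interval -0.96 to 0.73).

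Ctsh, an aminopeptidase, went the other way. It was at 0, 0.343 and 0.609 FPKM in control, at 0.451, 0 and 0.205 in LPS, and at 3.66, 3.71 and 6.10 in LPS-MIC-1. Each LPS-MIC-1 library was above each of the other 6. The log2 fold change was 4.12 ± 0.82 against LPS (limma adjusted p = 0.00163) and 3.82 against control (limma adjusted p = 0.00269), which misses the p limit of 0.001 in both. With a pseudocount of 1 both passed it, at 2.16 and 2.06. The means of control and LPS were 0.317 and 0.219 FPKM. Ctsh thus passed the filter of a mean over 1 FPKM only through the LPS-MIC-1 group, where it is high, which limits what these p-values show.

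Ctsz, a carboxypeptidase, was at 556, 573 and 580 FPKM in control, at 705, 684 and 691 in LPS, and at 223, 208 and 257 in LPS-MIC-1. The LPS libraries were the highest and the LPS-MIC-1 libraries the lowest, with no overlap. Ctsz fell in LPS-MIC-1, at a log2 fold change of -1.60 ± 0.074 against LPS (limma adjusted p = 1.97e-07) and of -1.32 against control (limma adjusted p = 7.02e-07). LPS against control gave 0.28 (limma adjusted p = 0.0102), which became -0.054 with libraries rescaled to equal sums. That rescaling moved the median of all genes by -0.34, and relative to this shift Ctsz was at 0.28.

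Ctsa, the serine carboxypeptidase that also protects lysosomal galactosidase and sialidase, decreased stepwise over the groups. Its FPKM was 509, 502 and 480 in control, 395, 388 and 380 in LPS, and 155, 140 and 161 in LPS-MIC-1. No 2 groups overlapped. It fell by 1.35 ± 0.057 on the log2 scale in LPS-MIC-1 against LPS (limma adjusted p = 1.20e-07) and had a log2 fold change of -1.71 against control (limma adjusted p = 3.44e-08). LPS against control differed by -0.36 (limma adjusted p = 0.000743), past the p limit only. In RefSeq Ctsa overlaps Neurl2 and Pltp, Ctsb overlaps Fdft1 and Ctsz overlaps Nelfcd, and whether strand was used in the quantification is not given in the sources used here, so the values of these pairs may share reads.

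Lamp1, a heavily glycosylated protein that lines the lysosomal membrane, was at 758, 750 and 761 FPKM in control, at 394, 388 and 380 in LPS, and at 426, 428 and 519 in LPS-MIC-1. The control libraries were above all others, and LPS-MIC-1 was slightly above LPS in every library. LPS against control gave a log2 fold change of -0.97 (95% interval -1.14 to -0.79, limma adjusted p = 1.35e-05), just inside the fold limit, and it was called at -1.30 with libraries rescaled to equal sums and at -1.19 after quantile normalization. LPS-MIC-1 differed from LPS by 0.24 (limma adjusted p = 0.0198) and from control by -0.73 (limma adjusted p = 3.64e-05), the latter called at -1.10 with rescaled libraries and at -1.19 after quantile normalization. Rescaling moved the median of all genes by -0.34 for LPS and by -0.37 for LPS-MIC-1 against control. Relative to these shifts Lamp1 was at -0.97 and -0.73, inside the fold limit. Lamp1 thus did not follow Ctsd, Ctsl or Ctsb, which were highest in LPS.

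**Figure D2:**
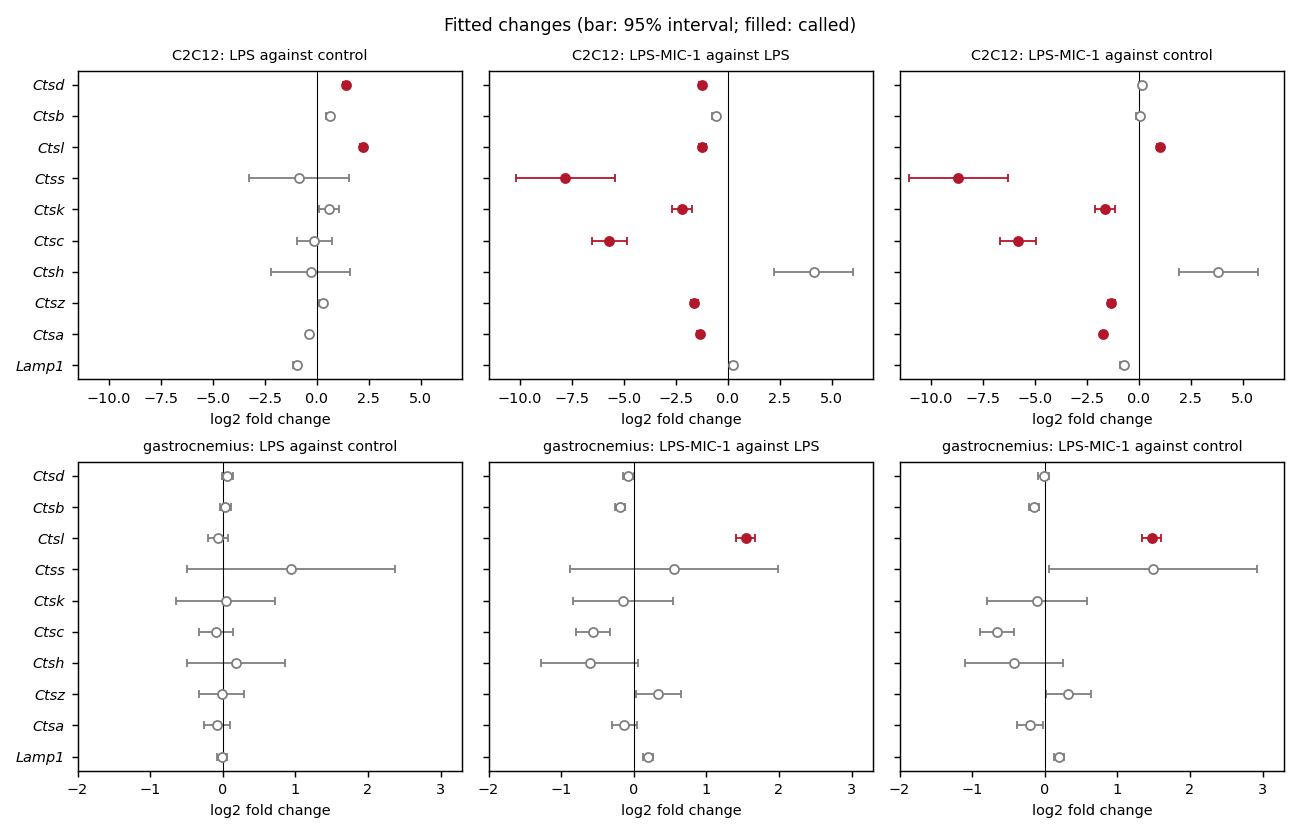
Log2 fold changes (x axis, log2(FPKM + 0.1) scale) of the 9 cathepsin genes and Lamp1 in the 3 comparisons of each experiment, C2C12 above and gastrocnemius below with its own narrower axis, with bars for 95% intervals and filled points for called genes. In C2C12 7 genes are filled on the lower side of LPS-MIC-1 against LPS, whereas in muscle Ctsl is the single filled point, at 1.54 against LPS and 1.47 against control.

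In muscle, LPS against control left all 10 genes uncalled, 0 of 10 in each direction, against 0.654% of the 9475 genes tested called higher and 0.591% called lower by limma. No member had an unadjusted p under 0.05, against 29.6% of all genes, and limma adjusted p ran from 0.251 to 0.956. Groups did not overlap for 2 of 10 members, Ctsd and Ctss, and for 36.5% of all genes. The members' median log2 fold change was 0.016, and that of all genes was 0.0055.

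LPS-MIC-1 against LPS in muscle had 1 member called higher, Ctsl, against 9.67% of all genes, and 0 called lower, against 5.44%. Ctsb, Ctsc and Lamp1 passed the p limit without the fold limit, a p limit that 56.5% of all genes passed at any fold change. Unadjusted p was under 0.05 for 5 of 10 members and for 61.0% of all genes, and groups did not overlap for 7 members and for 64.2% of all genes. Against control, LPS-MIC-1 again had Ctsl called higher as 1 of 10, against 9.33%, and 0 called lower, against 6.12%. Here Ctsa, Ctsb, Ctsc and Lamp1 passed the p limit alone, which 58.5% of all genes passed at any fold change. Unadjusted p was under 0.05 for 7 of 10 members and for 62.6% of all genes. The groups of 6 members did not overlap, against 64.6%. The members' median log2 fold changes were -0.10 and -0.062, beside -0.0090 and 0.0095 for all genes.

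**Figure D3:**
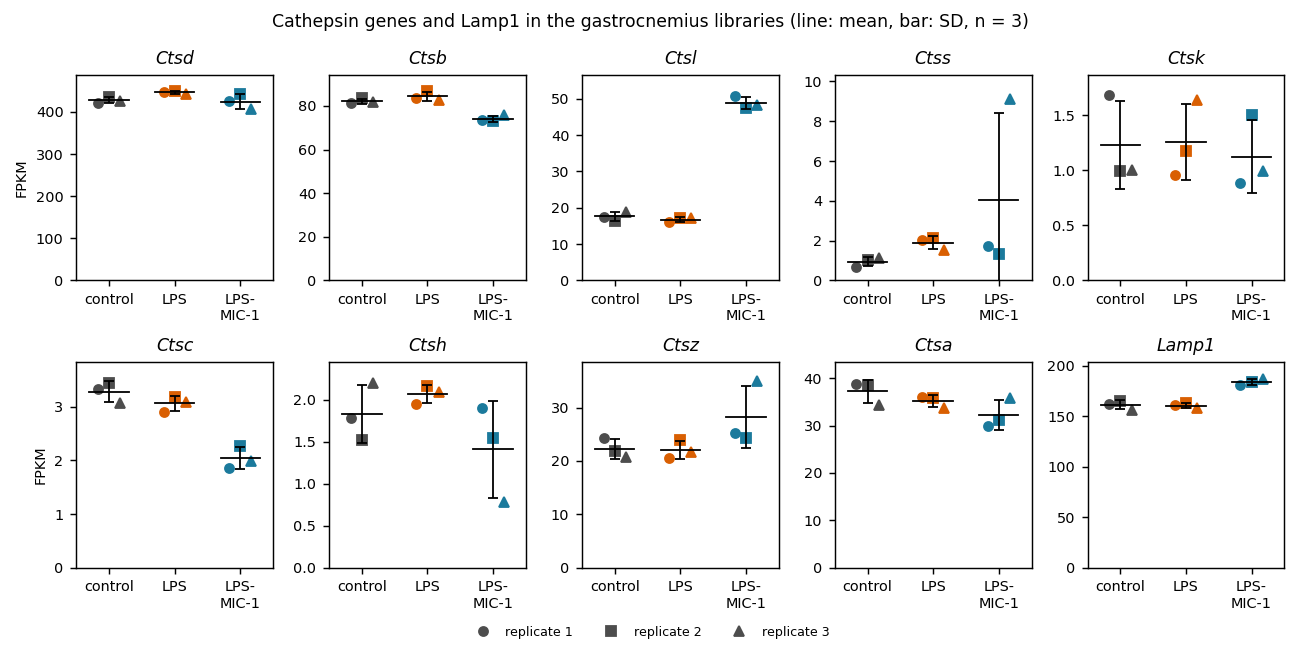
FPKM (linear axes, each from 0) of the 9 cathepsin genes and Lamp1 in the 9 gastrocnemius libraries, by group, with circles, squares and triangles for replicates 1, 2 and 3, a line at the mean and a bar of 1 SD (n = 3), cut off at 0 where it would run below. The LPS-MIC-1 libraries are at 47.4 to 50.7 FPKM of Ctsl, above all others, and the bar of Ctss is set by replicate 3 at 9.11 FPKM.

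Muscle Ctsl was at 17.6, 16.4 and 18.8 FPKM in control, at 16.0, 17.1 and 17.1 in LPS, and at 50.7, 47.4 and 48.4 in LPS-MIC-1. Every LPS-MIC-1 library was above every other library, and control and LPS overlapped. Ctsl rose by 1.54 ± 0.059 on the log2 scale against LPS (limma adjusted p = 1.65e-07) and by 1.47 against control (limma adjusted p = 2.03e-07), a 2.91-fold and a 2.77-fold difference. LPS replicates and controls differed by -0.069 (95% interval -0.20 to 0.065). Replicate 3 of LPS-MIC-1, where macrophage markers were high, had 0.986 times the Ctsl of the other two libraries. Over all alternatives of filter, scale and left-out library, the value against LPS stayed between 1.45 and 1.67 and was called in each.

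Ctss in muscle was at 0.693, 1.00 and 1.14 FPKM in control, at 2.03, 2.11 and 1.51 in LPS, and at 1.74, 1.31 and 9.11 in LPS-MIC-1. The LPS libraries were above the control libraries without overlap, at a log2 fold change of 0.94 ± 0.62 (limma adjusted p = 0.362). LPS-MIC-1 replicate 3 was 5.98-fold the mean of the other two. That library held 78.3 FPKM of Lyz2, where the other two held 5.27 and 3.93, and 12.4 FPKM of Csf1r, where they held 0.666 and 1.13. Other macrophage markers were higher there than in LPS, and the mean of replicates 1 and 2 was 742% of the LPS mean for Cd14, 446% for Mpeg1, 279% for Sfpi1 and 218% for Fcer1g, beside 51.3% for Lyz2 and 63.8% for Csf1r. LPS-MIC-1 differed from LPS by 0.55 (limma adjusted p = 0.481), and by -0.29 without that library. Against control the value was 1.49 (limma adjusted p = 0.0704), and it was 0.65 without replicate 3 and 2.00, a call, without replicate 2. The share of macrophage RNA in this difference was not tested.

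Ctsz showed the same library on a smaller scale. It was at 24.3, 21.9 and 20.7 FPKM in control, at 20.6, 24.0 and 21.6 in LPS, and at 25.3, 24.4 and 35.0 in LPS-MIC-1. Replicate 3 was 1.41-fold the mean of the other two, which were only just above the highest library of the other groups. The log2 differences of LPS-MIC-1 were 0.34 from LPS (limma adjusted p = 0.0635) and 0.32 from control (limma adjusted p = 0.0722), short of a call.

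**Figure D4:**
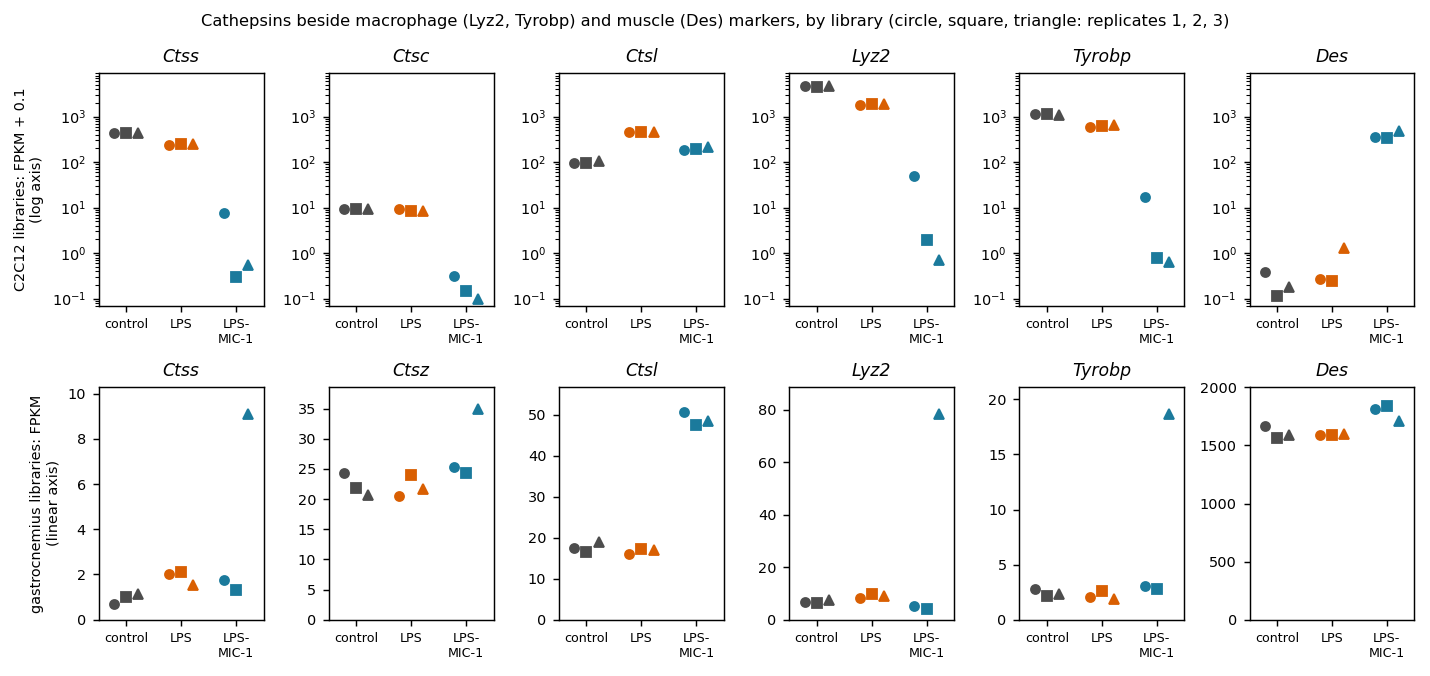
FPKM by library (circle, square and triangle for replicates 1, 2 and 3) of 3 cathepsin genes beside the macrophage genes Lyz2 and Tyrobp and the muscle gene Des, with C2C12 above as FPKM + 0.1 on a log axis and gastrocnemius below as FPKM on linear axes. In C2C12 LPS-MIC-1 the library with the most Lyz2, 48.8 FPKM, also has the most Ctss, 7.55, and in muscle the library with 78.3 FPKM of Lyz2 has 9.11 of Ctss, while Ctsl does not single out either library.

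Ctsd was the most abundant member in muscle too, at 422, 436 and 426 FPKM in control, at 448, 450 and 443 in LPS, and at 425, 443 and 406 in LPS-MIC-1. Its LPS libraries were all above its control libraries, by 0.062 on the log2 scale (95% interval -0.013 to 0.14, limma adjusted p = 0.251). LPS-MIC-1 differed from LPS by -0.075 (limma adjusted p = 0.0848) and from control by -0.013.

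Ctsb was at 81.4, 83.4 and 81.8 FPKM in control, at 83.5, 86.7 and 82.7 in LPS, and at 73.3, 73.1 and 75.8 in LPS-MIC-1, where every library was below all others. The log2 difference was -0.19 from LPS (limma adjusted p = 0.000977) and -0.15 from control (limma adjusted p = 0.00313). Lamp1 went the opposite way, at 162, 165 and 156 FPKM in control, at 161, 163 and 158 in LPS, and at 180, 184 and 187 in LPS-MIC-1. It was above LPS by 0.20 (limma adjusted p = 0.000661) and above control by 0.19 (limma adjusted p = 0.000737). Both genes moved by less than the fold limit, and the lysosomal membrane gene and the protease were on opposite sides of 0. With libraries rescaled to equal sums the Ctsb value against control was 0.0065, so its direction there depends on the scale, while the Lamp1 values kept their sign. That rescaling moved the median of all genes by 0.16, and relative to this shift the Ctsb value was -0.15.

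Muscle Ctsc was at 3.33, 3.44 and 3.08 FPKM in control, at 2.91, 3.19 and 3.10 in LPS, and at 1.86, 2.27 and 2.00 in LPS-MIC-1. All LPS-MIC-1 libraries were below all others, by a log2 difference of -0.57 ± 0.10 from LPS (limma adjusted p = 0.00151) and of -0.66 from control (limma adjusted p = 0.000602). Ctsc was thus lower in LPS-MIC-1 in both experiments, by far less in muscle, and its muscle value did not pass the fold limit. In the library with the highest macrophage markers Ctsc was 0.967 times the mean of the other two.

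Ctsa in muscle ranged from 34.4 to 38.7 FPKM with the vehicle, from 33.8 to 36.0 with LPS and from 29.8 to 35.9 with LPS-MIC-1, with a difference of -0.21 from control (limma adjusted p = 0.0467) and of -0.13 from LPS (limma adjusted p = 0.189). Ctsh was at 1.52 to 2.20, 1.96 to 2.17 and 0.779 to 1.91 FPKM in the same groups. Its log2 difference of LPS-MIC-1 from LPS was -0.61 (95% interval -1.27 to 0.063), and each LPS-MIC-1 library was below each LPS library. Ctsk was at 0.995 to 1.69, 0.958 to 1.64 and 0.882 to 1.50 FPKM. The Ctsk groups overlapped in all 3 comparisons, and its intervals reached at most 0.84 in size on the log2 scale.

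Ctsd and Lamp1 led the order of levels in the control libraries of both experiments. In the C2C12 control libraries Ctsd averaged 955 ± 6.77 FPKM, Lamp1 756 ± 5.52, Ctsz 570 ± 12.1, Ctsb 558 ± 13.2, Ctsa 497 ± 15.0 and Ctss 440 ± 3.34. Ctsl followed at 98.8 ± 5.46, Ctsc at 9.29 ± 0.138, Ctsk at 2.40 ± 0.522 and Ctsh at 0.317 ± 0.305 FPKM. Only the libraries of Ctsz and Ctsb overlapped among these neighbours. In LPS, Ctsl moved up to the fourth place, at 463 ± 6.15 FPKM, and Ctsa and Lamp1 overlapped at 388 ± 7.56 and 387 ± 6.96. In LPS-MIC-1, Ctss dropped to the eighth place, at 2.73 ± 4.17 FPKM, and its libraries overlapped those of Ctsh and Ctsk.

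In muscle control the order was Ctsd at 428 ± 6.93 FPKM, Lamp1 at 161 ± 4.50, Ctsb at 82.2 ± 1.10, Ctsa at 37.2 ± 2.47, Ctsz at 22.3 ± 1.84, Ctsl at 17.6 ± 1.22 and Ctsc at 3.28 ± 0.187. Ctsh, Ctsk and Ctss came last, at 1.84 ± 0.344, 1.23 ± 0.397 and 0.944 ± 0.227, and each overlapped its neighbour. LPS kept the first 8 places, with Ctss at 1.89 ± 0.323 FPKM now ahead of Ctsk. In LPS-MIC-1, Ctsl took the fourth place at 48.8 ± 1.71 FPKM, above Ctsa at 32.3 ± 3.20 and Ctsz at 28.2 ± 5.88, which overlapped each other. Ctss thus stood among the abundant members in the C2C12 libraries labelled control and among the rarest in muscle.

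As a share of all FPKM in a library, the 10 genes took 0.707 ± 0.00498% of C2C12 control, 0.804 ± 0.0135% of LPS and 0.377 ± 0.00658% of LPS-MIC-1. In muscle they took 0.103 ± 0.00202%, 0.107 ± 0.000528% and 0.122 ± 0.00437%. These shares did not overlap between the groups of either experiment. They also depend on the summed FPKM of all genes, which was lower in muscle LPS-MIC-1 than in the other muscle groups. The sums of the 10 genes themselves averaged 3887 ± 10.8, 5586 ± 38.0 and 2696 ± 232 FPKM in C2C12. In muscle they averaged 756 ± 11.6, 774 ± 10.6 and 801 ± 9.07 FPKM. There control and LPS sums overlapped, at 768 in control replicate 2 and 764 in LPS replicate 3. Ctsd made up 24.5 to 24.7% of the summed FPKM of the 10 genes in C2C12 control, 45.2 to 45.8% with LPS and 39.2 to 40.7% with LPS-MIC-1. In muscle Ctsd alone held more of the sum than the other 9 genes together in each library, at 56.1 to 57.1%, 57.3 to 58.0% and 50.7 to 54.7%.

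**Figure D5:**
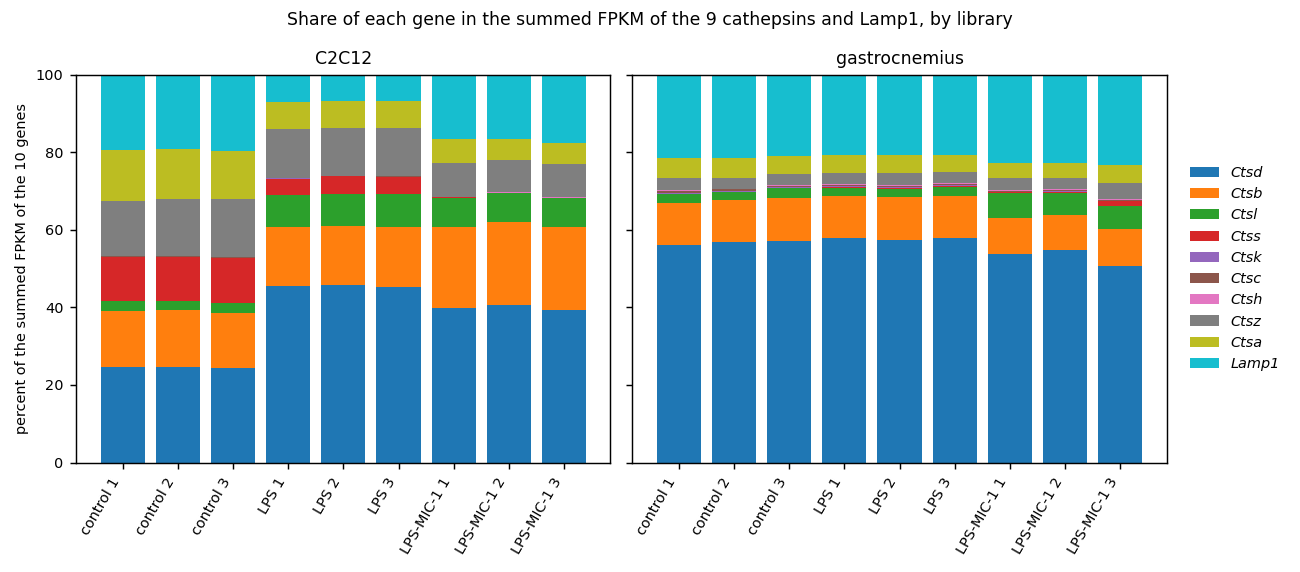
Share (percent, stacked to 100) of each gene in the summed FPKM of the 9 cathepsin genes and Lamp1, 1 bar per library, C2C12 on the left and gastrocnemius on the right. Ctsd takes 24.5 to 24.7% in C2C12 control and 45.2 to 45.8% in LPS, the Ctss band is visible in control and LPS and missing in LPS-MIC-1, and the muscle bars change mainly by a wider Ctsl band in LPS-MIC-1.

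The other genes of the lysosome were counted from lists of the pathway. Each count is to be read beside the share of all genes tested, of which, in C2C12, 10.9% were called higher and 10.0% lower with LPS, 24.3% and 25.6% in LPS-MIC-1 against LPS, and 21.1% and 22.1% in LPS-MIC-1 against control. In muscle these shares were 0.654% and 0.591%, 9.67% and 5.44%, and 9.33% and 6.12%. Of 14 other cathepsins and legumain, 4 passed the filter on low values in C2C12, namely Ctse, Ctsf, Ctso and Lgmn. With LPS, 1 was lower, Ctsf, a cysteine protease, with a log2 fold change of -2.21 from 53.9 ± 0.561 to 11.6 ± 0.290 FPKM. In LPS-MIC-1 all 4 were called lower against LPS and against control, with the largest change for Ctse, an aspartic protease of immune cells and gut, at -5.35 and -6.89. Ctse held 15.1 to 16.3 FPKM over control, 5.13 to 5.72 over LPS, and 0.144, 0 and 0 over LPS-MIC-1. In muscle 3 of them were tested and none was called in any comparison. In C2C12 the markers described above changed between the same groups. Their part in the fall of these 4 genes and the 7 members was not tested. Against control, LPS-MIC-1 was higher for Ctsl (1.01) and differed by 0.17 for Ctsd. In LPS-MIC-1 replicate 1, macrophage markers had a median ratio of 31.9 to the mean of the other libraries of the group. The same ratio was 23.2 for Ctss, 9.42 for Ctsc and 1.185 for Ctsk. That of Ctsc is a ratio of values near 0, of 0.220 FPKM beside 0.0466 and 0 in the other libraries. It was 1.03 for Ctsa, 0.92 for Ctsd, 0.91 for Ctsl and 0.96 for Ctsz.

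Of 9 cystatins and stefins 4 were tested in C2C12, and their changes were mixed. Cstb, an inhibitor inside the cell, rose with LPS by 1.80 on the log2 scale, from 249 ± 13.8 to 865 ± 54.5 FPKM. Cst7, an inhibitor of immune cells that restrains Ctsc, fell with LPS, at -2.10 on the log2 scale, and again in LPS-MIC-1 against LPS, at -4.29, from 9.98 ± 1.19 FPKM in control to 2.26 ± 0.422 and 0.0234 ± 0.0406. Cst6, a secreted inhibitor, was higher in LPS-MIC-1 by 6.52 against LPS and 7.28 against control, at 25.0 ± 4.63 FPKM where control held 0.0611 ± 0.0273. Like Ctsh, it passed the filter on low values only through the LPS-MIC-1 group. In counts, 1 was higher and 2 were lower in each of the 3 comparisons. None of the 3 tested in muscle was called.

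Among 11 tested lysosomal membrane proteins other than Lamp1, 3 were higher with LPS in C2C12 and none lower. LPS-MIC-1 against LPS gave 3 higher and 2 lower, and against control 3 higher and 1 lower. Lamp2, the partner of Lamp1 in the membrane, held 128 ± 3.66 FPKM (control), 223 ± 8.28 (LPS) and 46.3 ± 3.43 (LPS-MIC-1), and its log2 fold change in LPS-MIC-1 was -2.27 against LPS and -1.47 against control. Lamp1, by contrast, was lower in LPS than in control. Laptm4b, a small lysosomal membrane protein, rose by 1.89 with LPS and by 3.10 in LPS-MIC-1 against LPS, from 0.616 ± 0.0181 FPKM in control to 22.8 ± 2.52. In muscle 10 were tested, with 2 higher and 1 lower in both comparisons of LPS-MIC-1 and none with LPS alone. Npc1, which exports cholesterol from lysosomes, was at 19.8 ± 0.449, 23.6 ± 0.873 and 85.6 ± 4.34 FPKM, a rise of 1.86 against LPS and of 2.10 against control. Muscle Laptm4b fell, at -1.28 and -1.04.

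The vacuolar ATPase, which acidifies lysosomes, had 17 of 20 listed subunits tested in C2C12. With LPS 1 rose, Tcirg1, the a subunit of macrophages and osteoclasts, by 1.53 from 180 ± 1.84 to 520 ± 11.6 FPKM. In LPS-MIC-1 6 were lower against LPS and 3 against control, and none was higher, with the largest change for Atp6v0d2 at -2.72 and -2.23. Muscle gave 18 tested subunits, of which 1 was higher against LPS, and 1 higher and 1 lower against control. Atp6v1h rose by 2.30 and 2.78, from 1.66 ± 0.497 FPKM in control and 2.32 ± 0.528 in LPS to 11.7 ± 1.22. Atp6v1g2 fell by 2.44 against control (limma adjusted p = 0.0465), with 1 library of LPS-MIC-1 listed at 0.

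All 34 other lysosomal hydrolases and activators were tested in C2C12. With LPS 3 rose and 5 fell, and LPS-MIC-1 was higher for 2 and lower for 14 against LPS, and higher for 3 and lower for 16 against control. Npc2, which hands cholesterol to Npc1, rose with LPS by 1.52, and Arsb, a sulfatase, fell by 2.06. Psap, the precursor of the saposins that help sphingolipid hydrolases, rose in LPS-MIC-1 by 3.09 against LPS, from 97.4 ± 11.6 to 826 ± 24.5 FPKM, and by 2.25 against control. Acp5, the tartrate-resistant phosphatase of macrophages and osteoclasts, fell, at -5.93 and -4.85, to 0.509 ± 0.264 FPKM. Of the 29 tested in muscle 2 were higher against LPS and 1 against control, with Galns, a sulfatase, at 1.63 and 1.74.

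Sorting and transcription factors of the lysosome counted 10 tested genes of 13 in C2C12. With LPS 1 fell, Nagpa, which finishes the mannose phosphate tag, at -1.39 on the log2 scale. LPS-MIC-1 gave 1 higher and 5 lower against LPS, and 1 higher and 7 lower against control. Gnptg, a subunit of the enzyme that starts the tag, rose by 1.74 and 2.07, and Mitf, a transcription factor of lysosomal genes, fell, at -3.32 and -3.65, from 24.3 ± 0.382 FPKM in control to 1.85 ± 0.124. None of the 10 tested in muscle was called. The lists of hydrolases, subunits and sorting factors had more genes lower than higher in LPS-MIC-1 against LPS in C2C12, and the membrane list did not. In that comparison the median log2 fold change was -1.58 for the other cathepsins and legumain, -0.96 for the inhibitors, -0.96 for the membrane proteins, -0.80 for the subunits, -0.74 for the hydrolases and activators and -1.07 for the sorting factors, beside -0.047 for all genes tested.

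The gene with the profile most like each member was taken by Pearson's r of log2 values over the 9 libraries of an experiment, as a description, since the 3 group levels and the library composition are shared by all genes. In C2C12 the closest genes were Ncf1 for Ctss (r = 0.9991), Ccdc88b for Ctsc (0.9998), Sipa1 for Ctsa (0.9996), Ap3m1 for Ctsz (0.9991), Pdia5 for Ctsl (0.9988), Khdrbs1 for Lamp1 (0.9985), Eea1 for Ctsd (0.9978), Ccng1 for Ctsb (0.9963), Klhl15 for Ctsk (0.9943) and Fam189b for Ctsh (0.9738). With 216 genes over 0.99 for Ctsa and 212 for Ctsc, such values were common in C2C12. In muscle, Ctsl was closest to Rsad2 (0.9992), an antiviral gene, and 140 genes had an r over 0.99 with it, whereas Lamp1 had 3 such genes, led by Secisbp2 (0.9940), and the other 8 members had none. Ctsz was closest to Tyrobp (0.9514), an adaptor of macrophage receptors, and Ctss to Stom (0.9542). The remaining closest genes in muscle were Rapsn for Ctsc (0.9891), Dnajc28 for Ctsb (0.9831), Clns1a for Ctsd (0.9646), Mina for Ctsh (0.9592), Arrb1 for Ctsa (0.9365) and Smarcal1 for Ctsk (0.8656).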

How the data were processed

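The authors pseudoaligned the reads with kallisto (0.46.11 in the submitters' processing notes) and used tximport, and they deposited an FPKM table of 9 C2C12 libraries and another of 9 muscle libraries. Their DESeq2 (1.30.13) tables of fold changes and p-values for the comparisons were not used. The muscle table held 9 further per-sample columns without a name, which were not used. The processing notes name build mm9. Names and neighbours of genes come from RefSeq for GRCm38.p6, which matched 10 of 10 members, and no coordinates are given.

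Each experiment was fitted apart on log2(FPKM + 0.1) with limma 3.58.1 in R 4.3.3, a mean per group, eBayes with trend and 1 estimate of the spread for each gene from its 9 libraries. The tests covered genes above a mean of 1 FPKM (10877 in C2C12, 9475 in muscle), with Benjamini-Hochberg adjustment over them. The thresholds follow the study. The procedure was also run on simulated data with equal spread in every group and few changed genes. That setting differs from the C2C12 data, so no conclusion is drawn from it. A single-gene exact permutation test of 3 against 3 libraries has 10 splits and cannot give a p under 0.1, so none was used. Depth being unknown, no counting interval could be given. Members and lists were chosen with earlier results of these data known, and from each other list the called gene with the largest change per direction is named, beside Lyz2, Csf1r, Des, Myod1, the most abundant gene of a marker list and the most similar gene of each member. Col3a1 and Tyrobp fall under that rule. Further marker genes are named to show how a list divides. The lysosomal lists hold genes typical of macrophages or osteoclasts (Atp6v0d2, Acp5, Mitf and Tcirg1). Alternatives were other pseudocounts, filters, scalings, no trend, 6 libraries only, the replicate number as a block, and each library left out. Plots used Python 3.11.15 and matplotlib 3.10.9.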

Additional observations from a re-analysis of the deposited data

Results flagged for a closer look

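Ctss, Ctsl, Ctsz, Ctsh and Lamp1 changed in opposite directions in C2C12 and in muscle in some comparisons. There, every C2C12 library of a group lay on the one side of the group it was compared with. Every muscle library lay on the other side. Groups without overlap were common among all genes tested. Their share was 79.4% in C2C12 and 36.5% in muscle for LPS against control. It was 85.5% and 64.2% for LPS-MIC-1 against LPS, and 83.0% and 64.6% for LPS-MIC-1 against control. The share of all genes with opposite directions was not counted, so whether these members stand out is not known. The difference between the experiments was not tested, and the C2C12 libraries labelled control and LPS carried macrophage and not muscle markers. In LPS against control this pattern of opposite directions held for Ctss. Its log2 fold changes were -0.86 in C2C12 and 0.94 in muscle, neither past its test.

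In LPS-MIC-1 against LPS it held for Ctsl at -1.22 in C2C12 and 1.54 in muscle, both past their tests. Ctsz had -1.60 and 0.34, and Ctsh 4.12 and -0.61, of which the C2C12 value of Ctsz alone was called.

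In LPS-MIC-1 against control Ctss had -8.67 in C2C12 and 1.49 in muscle, Ctsz had -1.32 and 0.32, and Lamp1 had -0.73 and 0.19. Of these the C2C12 values of Ctss and Ctsz were called. Without LPS-MIC-1 replicate 3 the muscle value of Ctss was 0.65.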

How the results depend on the processing

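Same-numbered libraries did not deviate together (r of -0.076 to 0.057 in C2C12 and of -0.054 to 0.082 in muscle), and the fit with the replicate number as a block left each count of called members as it was, for example 7 lower in C2C12 LPS-MIC-1 against LPS and 1 higher in muscle. In C2C12, Lamp1 made 1 member lower with LPS under rescaling to equal sums and under quantile normalization. Ctsh made 1 higher in LPS-MIC-1 against LPS at a pseudocount of 1, and Ctsh and Ctsl made 2 higher against control. Leaving out 1 library gave 0 to 1 higher there against LPS (1 without control replicate 1) and 0 to 1 against control, where rescaling and quantile normalization gave 0. In muscle LPS-MIC-1 against control, leaving out 1 library gave 1 to 2 higher. Rescaling moved the median of all genes by -0.34, -0.038 and -0.37 in the 3 C2C12 comparisons and by 0.027, 0.13 and 0.16 in the muscle ones, and quantile normalization by -0.12 in both muscle comparisons of LPS-MIC-1. Directions reversed only for values not called in either setting, and the cause was not tested. With a library left out, log2 fold changes in C2C12 spanned -1.13 to 0.38 for Ctsh with LPS and -0.045 to 0.082 for Ctsb in LPS-MIC-1 against control. In muscle they spanned -0.16 to 0.27 for Ctsk, -0.077 to 0.048 for Ctsz and -0.026 to 0.014 for Lamp1 with LPS, -0.36 to 0.045 for Ctsk and -0.29 to 1.06 for Ctss in LPS-MIC-1 against LPS, and -0.043 to 0.019 for Ctsd and -0.32 to 0.12 for Ctsk in LPS-MIC-1 against control. Rescaling reversed Ctsz with LPS (-0.054) and, in LPS-MIC-1 against control, Ctsb (-0.34) and Ctsd (-0.21) in C2C12. In muscle it reversed Ctsz (0.012) and Lamp1 (0.022) with LPS, Ctsa (0.00043) and Ctsd (0.055) in LPS-MIC-1 against LPS, and Ctsb (0.0065), Ctsd (0.14) and Ctsk (0.034) in LPS-MIC-1 against control. Relative to the shift of all genes, each value that rescaling reversed kept the sign it had without rescaling. Quantile normalization reversed Lamp1 in LPS-MIC-1 against LPS (-0.0073) and Ctsb (-0.49) and Ctsd (-0.36) against control in C2C12, and Lamp1 with LPS (0.0031) in muscle. A filter at a mean FPKM over 5 gave no value for the members below it.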
